A study of Mus musculus with 30 samples.

Results

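BH3-only genes encode the proapoptotic members of the BCL2 family that carry the BH3 segment as their only shared BCL2 homology region. All 8 genes sought by symbol (Bmf, Bcl2l11, Bbc3, Pmaip1, Bid, Bad, Bik and Hrk) were found among the 39017 genes of the count table, and all 8 passed the filter on low counts that left 15627 genes for testing. They were followed in βTC3 cells, a mouse line of insulin-producing cells that came from a pancreatic beta cell tumour driven by SV40 T antigen. Poly(A) RNA was sequenced from 30 libraries in 10 groups of 3. Lines were labelled ALK7 (an inducible construct for this type I receptor), ALK7-DN (a dominant-negative form of it), sh2 (an inducible hairpin against it), sh1/2 (inducible knock-down by hairpins so labelled) and control. Each line had a group given 50 ng/ml activin B for 24 hours and a group without it, and all 10 groups, controls included, received 1 µg/ml doxycycline (DOX) for 24 hours. The plasmid of the ALK7, ALK7-DN and control lines was labelled PB-33 and that of both hairpin lines PB-31, and every PB-31 line carried hairpins. Replicates were wells of 1 line, so p-values measure the spread between these wells, which may be technical.

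BH3-only proteins start the mitochondrial route of apoptosis. They bind the survival proteins BCL2, BCL-XL and MCL1, and some of them also activate BAX and BAK directly, which then open the outer mitochondrial membrane and release cytochrome c. Many BH3-only genes are controlled at the RNA level, so that a signal can set how close a cell stands to this step, and in pancreatic beta cells Bcl2l11, Bbc3 and Hrk are known from studies of cytokine and lipid stress. Activin B belongs to the TGF-β ligands, and ALK7 is one of the receptors that pass their signal on to SMAD2 and SMAD3.

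Library totals ran from 18904884 to 34740789 counts. Of 14 beta cell markers, 13 averaged at least 1 CPM (counts scaled to library size). Summed markers of acinar cells reached at most 0.303 CPM with activin B and 0.671 CPM with DOX alone, and Prss1, Amy2a5 and Ptf1a were at 0. Those of endothelial cells reached at most 0.437 and 0.511 CPM, of duct cells 5.46 and 10.4 CPM, of delta cells 5.18 and 4.73 CPM, of epsilon cells 0.13 and 0.295 CPM, of fibroblasts 2.22 and 2.01 CPM and of immune cells 4.10 and 3.70 CPM, with activin B named first. The marker of PP cells ran from 0.429 to 1.63 CPM with activin B and from 0.0697 to 0.529 CPM with DOX alone. Of the alpha cell markers, Gcg ran from 7.48 to 31.5 CPM with activin B and from 49.4 to 171 CPM with DOX alone, without overlap, and Irx2 from 2.55 to 5.35 CPM with activin B and from 1.92 to 5.67 CPM with DOX alone. The part of these markers in the results was not tested. Acvr1c, the gene of ALK7, was lower in sh1/2 than in control cells under DOX alone, by a log2 fold change of -1.58 ± 0.11 (SE, adjusted p = 4.16e-11). Under activin B, Acvr1c was lower in sh2 cells (-1.24 ± 0.11, adjusted p = 1.87e-08) and in sh1/2 cells (-1.91 ± 0.11, adjusted p = 1.60e-12) than in control cells. In the lines labelled ALK7 and ALK7-DN under DOX alone it averaged 154 ± 11 and 161 ± 7.50 CPM, against 165 ± 6.34 CPM in control cells (SD, n = 3 each), so the count of the mouse gene showed no gain from either construct. Whether reads from a construct count toward this gene is not given in the sources used here. All activin B libraries of ALK7-DN and all DOX libraries of sh2 bore the label batch 2 and the other 24 libraries batch 1, so that in those lines batch and treatment cannot be told apart.

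Bmf encodes a BH3-only protein that binds dynein light chain on the actin and myosin V machinery and sets off apoptosis when released. The gene lies on chromosome 2 (mm10, chr2:118528757-118549687, minus strand). RefSeq (GRCm38.p6) gives 3 transcript starts for it, and the 250 bases before each are shown because Bmf had the strongest response of the 8 genes and SMAD3 binds DNA. Capitals mark CAGAC, the core of the SMAD-binding CAGA box, on either strand (GTCTG where it lies on the opposite strand). The first window, chr2:118544588-118544837, and the second, chr2:118547600-118547849, lie within introns of Bmf, and the third, chr2:118549687-118549936, lies before the gene and shares 1 base with its first exon.
Bmf start 118544587: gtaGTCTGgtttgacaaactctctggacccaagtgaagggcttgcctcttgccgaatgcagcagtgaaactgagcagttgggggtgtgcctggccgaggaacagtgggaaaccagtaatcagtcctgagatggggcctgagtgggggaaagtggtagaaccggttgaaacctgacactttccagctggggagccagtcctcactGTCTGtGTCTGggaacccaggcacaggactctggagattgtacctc
Bmf start 118547599: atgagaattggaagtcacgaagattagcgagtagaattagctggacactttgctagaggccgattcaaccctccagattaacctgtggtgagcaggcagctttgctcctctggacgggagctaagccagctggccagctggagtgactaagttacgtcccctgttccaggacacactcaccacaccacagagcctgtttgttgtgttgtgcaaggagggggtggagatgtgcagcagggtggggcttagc
Bmf start 118549686: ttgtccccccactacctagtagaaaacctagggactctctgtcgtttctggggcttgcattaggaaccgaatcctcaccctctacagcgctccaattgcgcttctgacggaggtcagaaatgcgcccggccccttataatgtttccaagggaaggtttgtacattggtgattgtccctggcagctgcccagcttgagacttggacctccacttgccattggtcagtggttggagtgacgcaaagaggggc

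CAGAC occurred at 3 places in the window before start 118544587, beginning 247, 46 and 40 bases before the start, and at 0 places in the other windows. Of 32851 RefSeq promoter windows of the same length, 42.2% held CAGAC on at least 1 strand. GGCGCC, another SMAD-bound sequence (held by 9.6% of windows), TGTTTAC of FOXO factors (3.2%) and TGANTCA of AP-1 factors (6.7%) were sought on both strands too, and none was in the 3 Bmf windows. Promoter entries were found for 6 of the 8 members (12 windows). CAGAC lay at 3 places in the Bbc3 windows and at 1 in those of Bcl2l11, GGCGCC at 2 places in each, and TGTTTAC at 1 place in each. The windows of Bid, Bad and Hrk held none of these motifs. A match is a description of letters, and gene counts do not tell which start was in use.

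Bmf rose with activin B in all 5 lines, and in each the libraries with activin B lay above those with DOX alone without overlap. In ALK7 cells Bmf stood at 20.3, 20.2 and 19.9 CPM with activin B, against 1.70, 1.36 and 1.57 CPM with DOX alone. The response was 13-fold, a log2 fold change of 3.71 ± 0.15 (adjusted p = 8.95e-16). The 3 activin B libraries of this line were the highest of all 30.

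In ALK7-DN cells Bmf stood at 7.79, 8.23 and 7.98 CPM with activin B, against 1.24, 1.401 and 1.71 CPM with DOX alone (log2 fold change 2.46 ± 0.14, adjusted p = 2.36e-12). In sh2 cells it stood at 7.84, 8.72 and 8.63 CPM with activin B, against 1.85, 1.28 and 1.21 CPM with DOX alone (log2 fold change 2.53 ± 0.15, adjusted p = 1.62e-12). These lines reached nearly the same level with activin B, although ALK7-DN was then of batch 2 and sh2 of batch 1. Both are the lines in which treatment and batch label coincide. In sh1/2 cells Bmf stood at 4.88, 4.97 and 5.38 CPM with activin B, against 1.52, 1.401 and 1.82 CPM with DOX alone, a 3.25-fold response (log2 fold change 1.70 ± 0.15, adjusted p = 2.98e-09). In control cells it stood at 12.8, 9.73 and 10.1 CPM with activin B, against 1.30, 0.941 and 1.27 CPM with DOX alone, a 9.37-fold response (log2 fold change 3.23 ± 0.15, adjusted p = 2.61e-14). The weakest response thus still separated every library with activin B from every library without it. These calls were kept under every alternative fitted, leaving out each library included. RNA from bulk wells cannot tell more cells with the transcript from more transcript per cell.

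**Figure D1:**
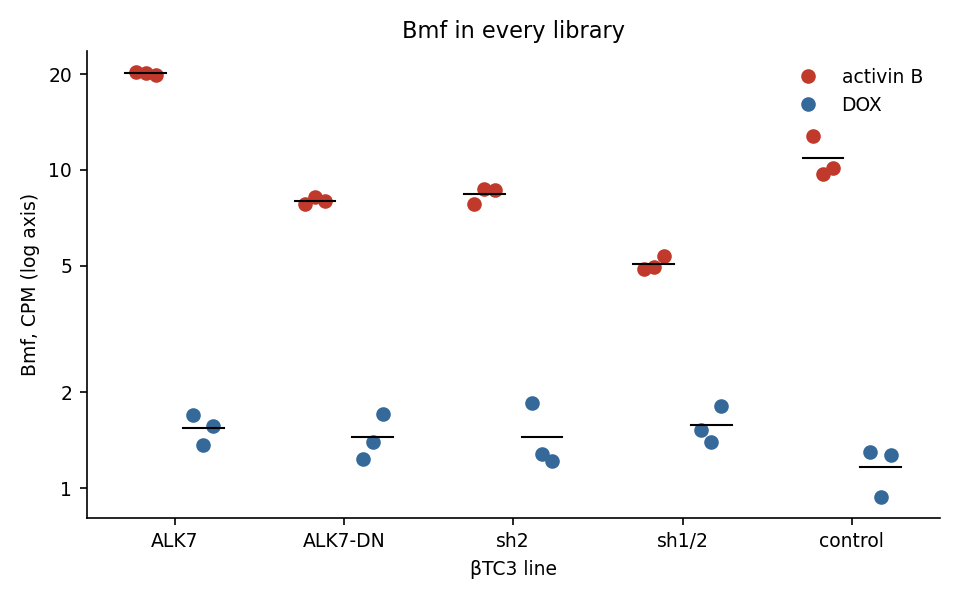
Bmf in each of the 30 libraries, in CPM on a log axis, by line, with activin B (red) left of DOX alone (blue); bars are the means of 3 libraries. Activin B libraries span 4.88 to 20.3 CPM and DOX libraries 0.941 to 1.85 CPM, with no overlap.

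Ordered by mean, Bmf was lowest in control, sh2, ALK7-DN, ALK7 and sh1/2 cells with DOX alone, where neighbouring groups overlapped. Then came sh1/2 cells with activin B (5.08 ± 0.27 CPM), then ALK7-DN (8.001 ± 0.22 CPM) and sh2 (8.40 ± 0.49 CPM), a pair that overlapped, then control (10.9 ± 1.65 CPM) and ALK7 (20.2 ± 0.20 CPM; SD, n = 3 each). Among all 15627 genes, ranked from the largest rise, the Bmf response stood at place 34 in ALK7, 62 in ALK7-DN, 88 in sh2, 118 in sh1/2 and 44 in control cells.

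With activin B in both lines, Bmf was 1.85-fold higher in cells labelled ALK7 than in control cells (log2 fold change 0.89 ± 0.12, adjusted p = 7.87e-05). It was lower in sh1/2 than in control cells (-1.10 ± 0.13, adjusted p = 3.17e-07), and neither pair of groups overlapped. In sh2 against control cells, all of batch 1, the difference was -0.37 ± 0.13 (adjusted p = 0.0658), which missed the threshold although the groups did not overlap. It passed without control activin B replicate 2 (-0.45, adjusted p = 0.0451), with a correction for GC content (the share of G and C in a transcript) and the replicate number as a block (-0.41, adjusted p = 0.020) and by the DESeq2 Wald test (-0.39, adjusted p = 0.0177). With DOX alone the differences from control were 0.41 ± 0.17 in ALK7 (adjusted p = 0.328), 0.32 ± 0.17 in ALK7-DN (adjusted p = 0.715) and 0.43 ± 0.17 in sh1/2 cells (adjusted p = 0.0839). None passed the test, and the 95% intervals ran from 0.06 to 0.76, from -0.03 to 0.67 and from 0.08 to 0.78. The F test gave an unadjusted p of 0.038 in ALK7 and 0.037 in sh1/2 cells. Both are larger than the intervals imply, so at these low counts the intervals are too narrow. The sh1/2 difference passed with the GC correction and block (0.56, adjusted p = 0.0192).

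The size of the Bmf response itself differed from that of the control line in sh1/2 cells. There the log2 response was smaller by a difference of -1.53 ± 0.21 (95% interval -1.97 to -1.09, adjusted p = 1.94e-04), and this call was kept under every alternative fitted. In ALK7-DN cells the difference was -0.77 ± 0.21 (95% interval -1.20 to -0.33, unadjusted p = 0.00124, adjusted p = 1) and in sh2 cells -0.70 ± 0.21 (95% interval -1.14 to -0.26, unadjusted p = 0.00286, adjusted p = 0.835). In ALK7 cells it was 0.48 ± 0.21 (95% interval 0.04 to 0.91, adjusted p = 0.483). These 3 did not pass over all genes, and all 4 comparisons share the control libraries.

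Over the 8 members, the test of a response different from control called 0 in ALK7, 0 in ALK7-DN, 0 in sh2 and 2 in sh1/2 cells. Of all genes, edgeR called 0.0256%, 0%, 0.0128% and 17.7% in these comparisons. The 0 of ALK7-DN stands beside 342 genes at an unadjusted p under 0.05 and 3 called by DESeq2. Among members, 2 in ALK7, 1 in ALK7-DN and 1 in sh2 had an unadjusted p under 0.05, and DESeq2 called 0 in each.

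**Figure D2:**
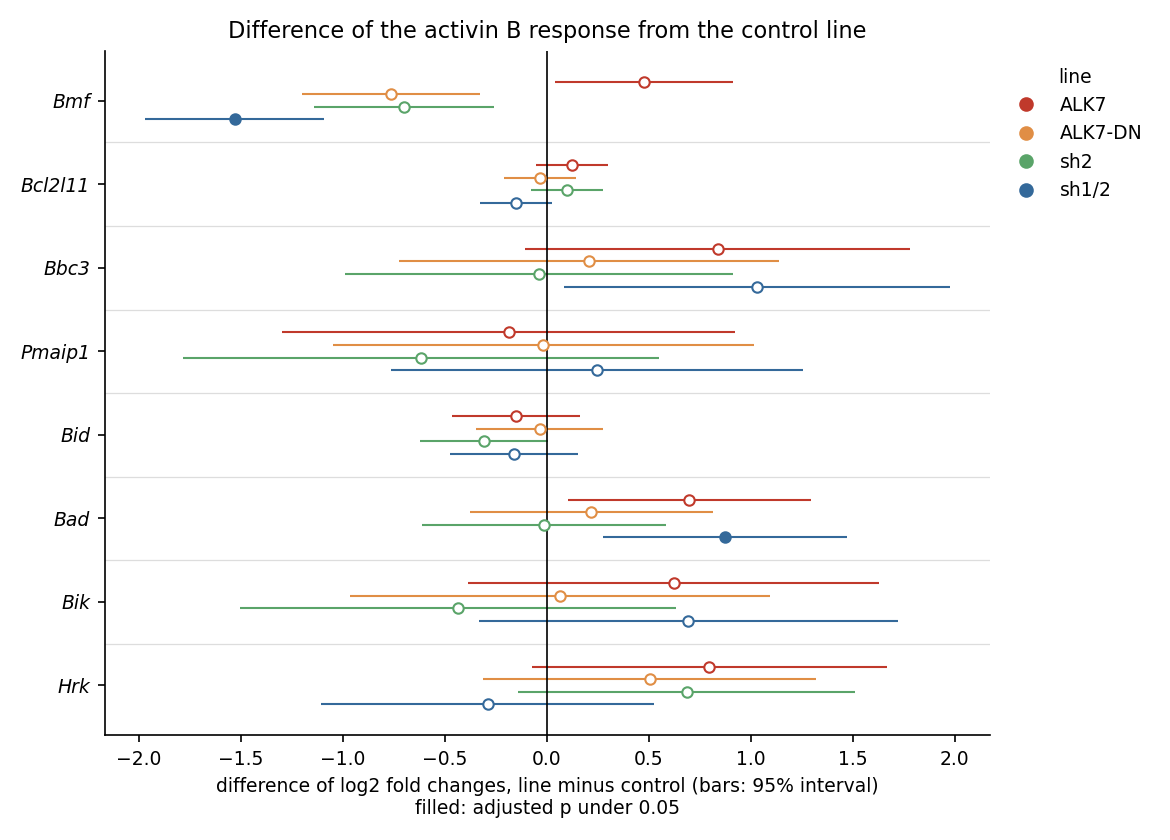
Difference of the activin B response between each line and control for the 8 genes, as a difference of log2 fold changes with 95% intervals; filled points passed the test. The 2 filled points are Bmf (-1.53) and Bad (0.88), both in sh1/2 cells.

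Because long transcripts collect more reads, levels of different genes were compared per kilobase of exon (CPM per kilobase, written RPKM here). By that scale Bad led in every group, between 10.2 and 16.5 RPKM on average, followed by Bcl2l11 at 5.53 to 8.86 RPKM. Bmf averaged 3.84 ± 0.04 RPKM in ALK7 cells with activin B, against 0.294 ± 0.03 RPKM with DOX alone (SD, n = 3 each). Of the 8 means in ALK7 cells, that of Bmf was the third highest with activin B and the sixth with DOX alone.

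As a share of the summed RPKM of the 8 genes, Bmf took 12.03 ± 0.88% with activin B and 1.32 ± 0.17% with DOX alone in ALK7 cells. The shares were 5.50 ± 0.95% and 1.04 ± 0.28% in ALK7-DN cells, and 6.27 ± 0.70% and 1.02 ± 0.15% in sh2 cells, with activin B named first. Bmf took 3.22 ± 0.16% with activin B and 1.34 ± 0.36% with DOX alone in sh1/2 cells, and 8.32 ± 0.72% with activin B and 0.869 ± 0.08% with DOX alone in control cells (SD, n = 3 each). Bad and Bcl2l11 together kept most of the sum in all 10 groups. The sum itself was 32.0 ± 2.62 RPKM with activin B and 22.3 ± 0.41 RPKM with DOX alone in ALK7 cells, and 25.0 ± 4.02 RPKM with activin B and 25.6 ± 3.32 RPKM with DOX alone in control cells.

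**Figure D3:**
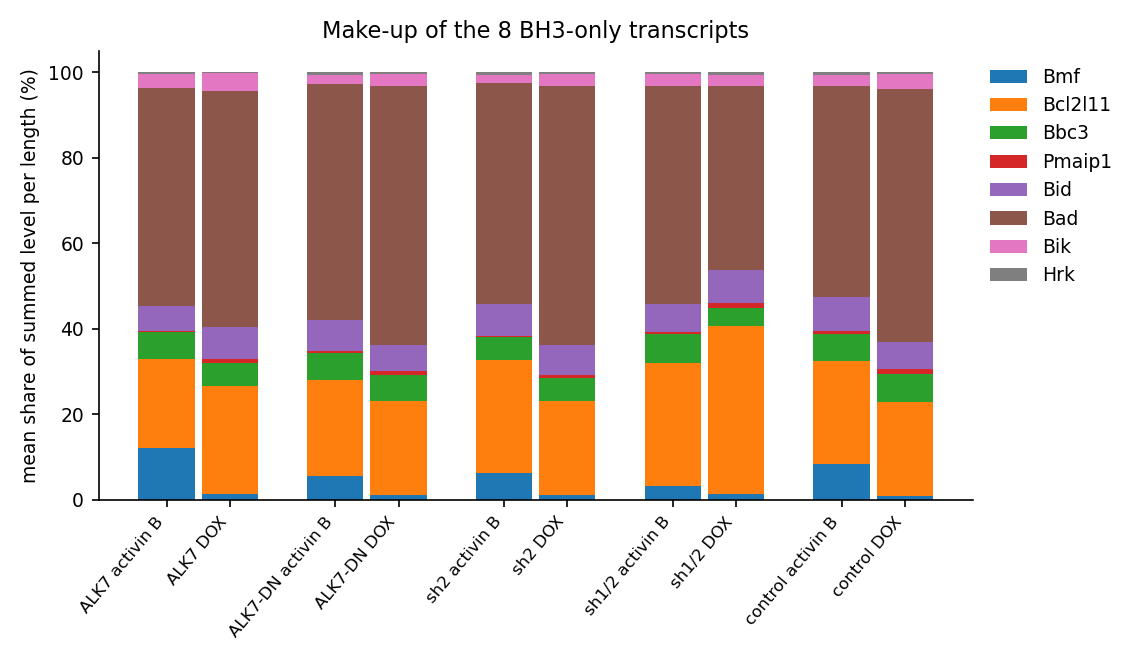
Mean share of each BH3-only gene in the summed level per kilobase of exon (RPKM) of the 8 genes, in percent, for the 10 groups, with activin B left of DOX alone. The Bmf band is widest in ALK7 cells with activin B (12.03%) and Bad fills 43.1% to 60.7%.

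The genes whose pattern over the 10 group means of log2(CPM + 2) was most like that of Bmf, among 10969 genes averaging 2 CPM or more, were Amotl2 (Pearson r = 0.990), Sertad4 (0.990), Cacna1g (0.989), Ttc8 (0.988) and Spon2 (0.988). The points share 5 lines, 2 treatments and the depth of each library, so this is a description. Amotl2, which encodes an angiomotin-like protein, averaged 14.9 CPM with activin B and 2.09 CPM with DOX alone in ALK7 cells, and 7.29 CPM with activin B and 2.15 CPM with DOX alone in control cells. Cacna1g, a T-type calcium channel gene, averaged 7.26 CPM with activin B and 0.640 CPM with DOX alone in ALK7 cells, and 3.41 CPM with activin B and 0.627 CPM with DOX alone in control cells. Like Bmf, both were highest in ALK7 cells with activin B. The responses of Spon2, which encodes a secreted matrix protein, were log2 fold changes of 5.18 in ALK7, 4.20 in ALK7-DN, 4.19 in sh2, 3.43 in sh1/2 and 4.55 in control cells. Those of Sertad4 ranged from 0.43 in sh1/2 to 1.21 in ALK7 cells, and those of Ttc8, a gene of the ciliary BBSome, from 0.52 in sh1/2 to 1.26 in ALK7 cells.

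Bcl2l11 encodes BIM, which binds all the main survival proteins and can activate BAX directly (chr2:128126038-128162547, plus strand). It changed little with activin B but stood apart in sh1/2 cells. With DOX alone it stood at 71.9, 66.6 and 74.8 CPM in sh1/2 cells, against 44.9, 44.2 and 44.2 CPM in control cells (log2 fold change 0.68 ± 0.06, adjusted p = 4.36e-09). Under activin B the values were 71.8, 63.5 and 71.8 CPM in sh1/2 cells, against 50.7, 46.0 and 46.7 CPM in control cells (0.53 ± 0.06, adjusted p = 1.92e-07). The groups did not overlap under either treatment, and both calls were kept under every alternative fitted. The sh2 line, which has the same plasmid label as sh1/2, lay below every sh1/2 library, at 52.8 to 57.0 CPM with activin B and 45.3 to 48.7 CPM with DOX alone. With DOX alone sh2 was of batch 2 and sh1/2 of batch 1, so line and batch cannot be told apart there. The difference between these lines was not tested.

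With activin B, Bcl2l11 rose by a log2 fold change of 0.23 ± 0.06 in ALK7 cells (56.7, 49.2 and 53.7 CPM with activin B, against 47.1, 43.7 and 45.01 CPM with DOX alone, adjusted p = 0.00489). In sh2 cells it rose by 0.20 ± 0.06 (57.0, 53.2 and 52.8 CPM with activin B, against 48.7, 45.3 and 47.4 CPM with DOX alone, adjusted p = 0.0161). Neither pair overlapped. The sh2 call was lost without sh2 DOX replicate 2 (0.18, adjusted p = 0.0834) or sh2 activin B replicate 1 (0.17, adjusted p = 0.0911). It was also lost with no low-count filter (0.20, adjusted p = 0.0506). In ALK7-DN, sh1/2 and control cells the values were 0.07 ± 0.06, -0.04 ± 0.06 and 0.11 ± 0.06, below the threshold.

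Bid encodes a BH3-only protein that caspase-8 cleaves to its active form (chr6:120891930-120916853, minus strand). In control cells it stood at 6.66, 7.16 and 7.05 CPM with activin B, against 6.01, 5.78 and 4.82 CPM with DOX alone (log2 fold change 0.33 ± 0.11, adjusted p = 0.0306). Over all groups the means of Bid lay between 5.54 and 7.25 CPM, and each group overlapped its neighbour in the order. Within each line the estimate was above 0. It was 0.18 ± 0.11 in ALK7 (adjusted p = 0.253) and 0.29 ± 0.105 in ALK7-DN cells (adjusted p = 0.0610), without overlap but uncalled. In sh2 and sh1/2 cells it was 0.02 ± 0.11 and 0.17 ± 0.11, with overlap and uncalled. The control call was lost without control DOX replicate 3 (0.24, adjusted p = 0.189), without control activin B replicate 2 (0.31, adjusted p = 0.0859) and without control activin B replicate 3 (0.32, adjusted p = 0.0784). It was also lost with only the groups compared fitted (adjusted p = 0.129), with no low-count filter (adjusted p = 0.0744) and without the 3 libraries named under Bad (adjusted p = 0.0787). With the replicate number as a block, Bid also passed in ALK7-DN cells (0.29, adjusted p = 0.0465, against 0.0610 without the block), as it did without ALK7-DN activin B replicate 1 (0.36, adjusted p = 0.0395). Bid shares 628 exon bases with Bcl2l13 on the other strand, and the strand setting of the counting is not given in the sources used here, so its reads cannot be told apart there.

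Bbc3 encodes PUMA, a p53 target that binds all the main survival proteins (chr7:16308393-16318205, plus strand). In sh1/2 cells it stood at 3.41, 4.83 and 4.95 CPM with activin B, against 1.30, 3.95 and 1.34 CPM with DOX alone (log2 fold change 0.96 ± 0.32, adjusted p = 0.0236). DOX replicates 1 and 3 were low and the other lay inside the range with activin B. The call was lost without sh1/2 DOX replicate 1 (0.68, adjusted p = 0.151), DOX replicate 3 (0.73, adjusted p = 0.138), activin B replicate 2 (0.89, adjusted p = 0.0723) or activin B replicate 3 (0.87, adjusted p = 0.0744). In ALK7 cells Bbc3 stood at 4.87, 4.56 and 3.52 CPM with activin B, against 2.45, 2.48 and 2.67 CPM with DOX alone, without overlap (0.77 ± 0.32, adjusted p = 0.0844, and 0.76, adjusted p = 0.0155 with the replicate block).

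Bad encodes a protein that 14-3-3 proteins hold inactive when survival kinases phosphorylate it (chr19:6941861-6951899, plus strand). In sh1/2 cells it stood at 34.8, 43.2 and 39.9 CPM with activin B, against 21.3, 36.8 and 20.1 CPM with DOX alone (log2 fold change 0.59 ± 0.20, adjusted p = 0.0280). The low DOX libraries were replicates 1 and 3, as for Bbc3, and the groups overlapped. With DOX alone Bad was lower in sh1/2 cells than in control cells, which stood at 46.7, 32.4 and 37.7 CPM (-0.57 ± 0.20, adjusted p = 0.0304). Its response was larger in sh1/2 than in control cells by a log2 difference of 0.88 ± 0.29 (adjusted p = 0.0425). In ALK7 cells Bad stood at 46.5, 43.1 and 35.8 CPM with activin B, against 30.5, 33.2 and 30.7 CPM with DOX alone, without overlap (0.41 ± 0.20, adjusted p = 0.152, and 0.40, adjusted p = 0.0146 with the replicate block). The Bad response was -0.30 ± 0.20 in sh2 (adjusted p = 0.338) and -0.29 ± 0.20 in control cells (adjusted p = 0.364), and with a GC correction and replicate block both passed, at -0.20 (adjusted p = 0.0217) and -0.17 (adjusted p = 0.0480). Bad shares 524 exon bases with Gpr137 on the other strand, with the same limit as Bid.

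Leaving out sh1/2 DOX replicates 1 and 3 and control activin B replicate 2 left 1 library, replicate 2, in the sh1/2 DOX group. The sh1/2 response of Bad was then 0.10 and that of Bbc3 0.16. The Bad difference under DOX alone became -0.08 and the difference of its response 0.22. By chi-square over its degrees of freedom, replicate 2 lay at 57.3 and 51.4 from replicates 1 and 3, which lay 12.8 apart. For sh1/2 cells with DOX alone this fit thus rests on 1 library, the one least like the others, and cannot decide whether a response is lost. The 3 libraries left out were set against GC content, which is 57.1% for Bad and 65.2% for Bbc3 in the longest transcript. Across genes, which are not independent replicates, the Spearman correlation of a library's deviation from its group mean with GC content was -0.477, 0.696 and -0.585 in sh1/2 DOX replicates 1, 2 and 3, and -0.674 in control activin B replicate 2. Over all 30 libraries it ran from -0.674 to 0.696, and libraries that were kept lay as far out as sh1/2 DOX replicate 1, such as control activin B replicate 1 at 0.612 and ALK7-DN activin B replicate 3 at -0.518. With a GC correction and the replicate block, Bad kept its calls at 0.29 (adjusted p = 0.00241) in the response, -0.36 (adjusted p = 3.05e-04) under DOX alone and 0.47 (adjusted p = 0.00339) in the difference of responses. Bbc3 kept its response at 0.39 (adjusted p = 0.0487). The Bad response was lost without sh1/2 DOX replicates 1 or 3 (0.46 and 0.43) or activin B replicates 2 or 3 (0.51 and 0.58), with adjusted p from 0.0660 to 0.167. The Bad difference under DOX alone was lost without control DOX replicates 1 or 3 (-0.41 and -0.59) or sh1/2 DOX replicates 1 or 3 (-0.44 and -0.42), with adjusted p from 0.0530 to 0.167. The difference of responses was lost without control DOX replicates 1 or 3, control activin B replicate 2, sh1/2 DOX replicates 1 or 3 or sh1/2 activin B replicates 2 or 3, at values from 0.71 to 0.90.

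**Figure D4:**
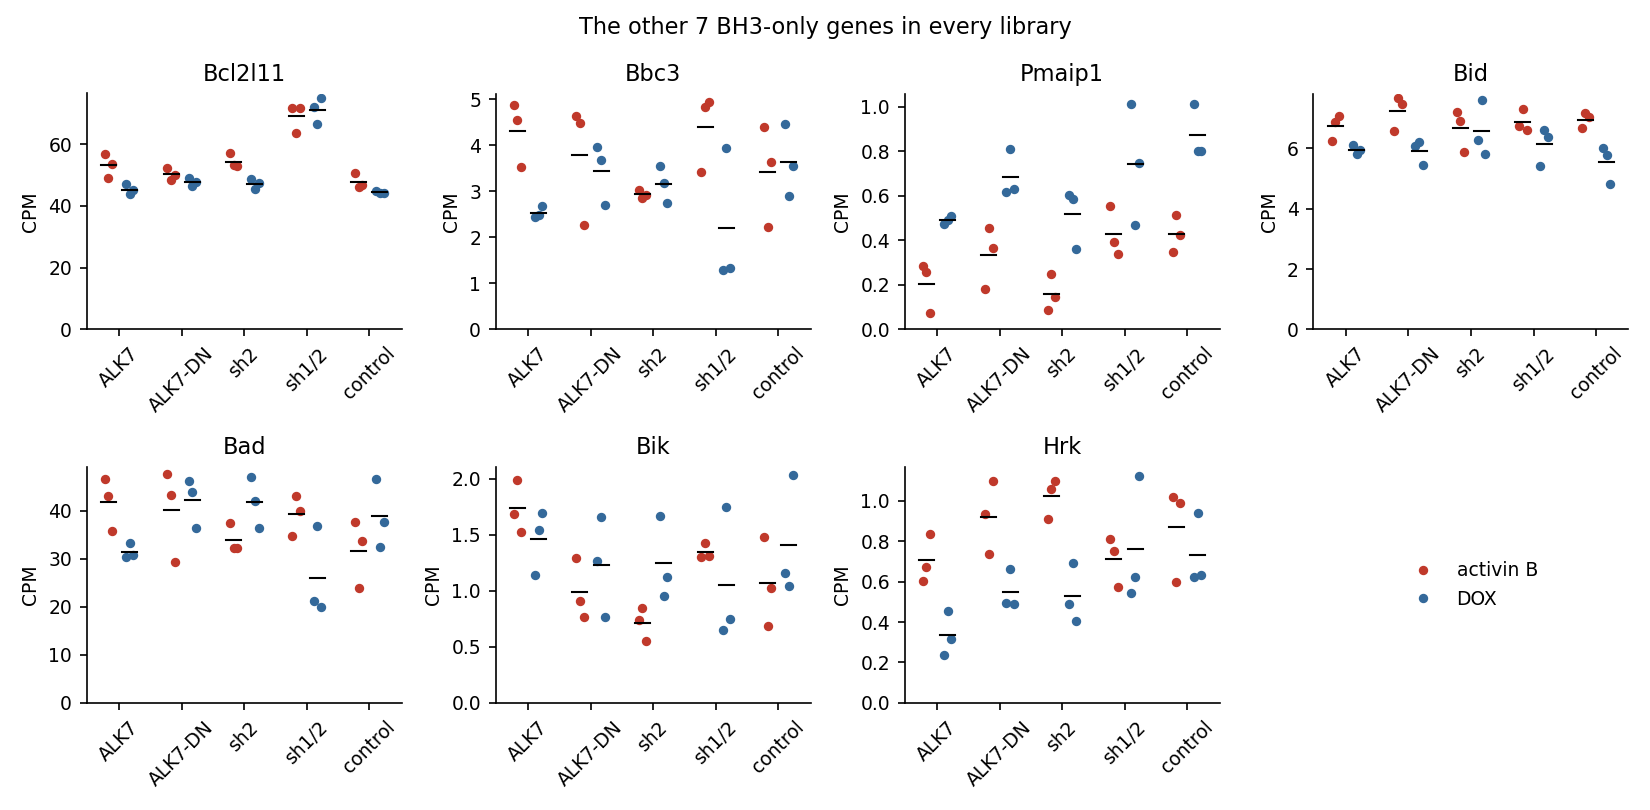
The other 7 BH3-only genes in each of the 30 libraries, in CPM on linear axes from 0, by line, with activin B (red) left of DOX alone (blue); bars are means of 3 libraries. Bcl2l11 is higher in sh1/2 cells (63.5 to 74.8 CPM) than in control cells (44.2 to 50.7 CPM), and 2 sh1/2 DOX libraries are low in Bad (21.3 and 20.1 CPM).

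Pmaip1 encodes NOXA, which binds MCL1 most tightly and is a p53 target (chr18:66458533-66465565, plus strand). It fell with activin B in 4 of the 5 lines. In sh2 cells it stood at 0.0866, 0.247 and 0.146 CPM with activin B, against 0.605, 0.585 and 0.360 CPM with DOX alone (log2 fold change -1.64 ± 0.43, adjusted p = 0.00615). That call was kept under every alternative fitted, on 2, 7 and 4 counts with activin B and 16, 16 and 8 counts with DOX alone. No alternative could separate treatment from batch label, which coincide in sh2 cells, as they do in ALK7-DN cells.

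In ALK7 cells Pmaip1 stood at 0.287, 0.257 and 0.0726 CPM with activin B, against 0.474, 0.490 and 0.511 CPM with DOX alone (-1.21 ± 0.40, adjusted p = 0.0248). In ALK7-DN cells it stood at 0.181, 0.456 and 0.366 CPM with activin B, against 0.618, 0.811 and 0.630 CPM with DOX alone (-1.04 ± 0.35, adjusted p = 0.0421). In control cells it stood at 0.349, 0.514 and 0.425 CPM with activin B, against 1.01, 0.801 and 0.803 CPM with DOX alone (-1.03 ± 0.34, adjusted p = 0.0333). No group overlapped its partner in these 4 lines. The sh1/2 groups overlapped and the value, -0.78 ± 0.34, missed the threshold (adjusted p = 0.0707), but it passed without sh1/2 DOX replicate 2 (-1.06, adjusted p = 0.0141).

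The other Pmaip1 calls rested on few counts and were lost under several alternatives. With no low-count filter the call was lost in ALK7-DN (adjusted p = 0.0745) and control cells (adjusted p = 0.0578), and by the DESeq2 Wald test likewise (adjusted p = 0.0744 and 0.0575). With only the groups compared fitted it was lost in ALK7 (adjusted p = 0.0612) and ALK7-DN cells (adjusted p = 0.0890). In ALK7 cells it was lost without DOX replicate 2 (-1.22, adjusted p = 0.0570), DOX replicate 3 (-1.19, adjusted p = 0.0645) or activin B replicate 3 (-0.84, adjusted p = 0.126). In ALK7-DN cells it was lost without DOX replicates 1, 2 or 3 (-1.12, -0.91 and -1.10) and without activin B replicates 1 or 3 (-0.73 and -1.12), with adjusted p from 0.0628 to 0.222. In control cells it was lost without DOX replicates 1, 2 or 3 (-0.91, -1.09 and -1.08) and without activin B replicates 1 or 3 (-0.89 and -1.03), with adjusted p from 0.0567 to 0.122. The direction was the same in each of these fits.

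Hrk encodes Harakiri, also called DP5, which is known best in neurons (chr5:118164648-118189478, plus strand). In ALK7 cells it stood at 0.605, 0.674 and 0.835 CPM with activin B, against 0.237, 0.455 and 0.315 CPM with DOX alone (1.04 ± 0.31, adjusted p = 0.0133). In sh2 cells it stood at 0.909, 1.06 and 1.10 CPM with activin B, against 0.491, 0.695 and 0.405 CPM with DOX alone (0.93 ± 0.28, adjusted p = 0.0203). Both rises were without overlap, from low levels. The ALK7 call was lost without DOX replicate 1 (0.85, adjusted p = 0.0784), DOX replicate 3 (0.99, adjusted p = 0.0502) or activin B replicate 3 (0.91, adjusted p = 0.0581). The sh2 call was lost without DOX replicates 1 or 3 (0.87 and 0.78) and without activin B replicates 2 or 3 (0.91 and 0.88), with adjusted p from 0.0570 to 0.0827. In ALK7-DN, sh1/2 and control cells the values were 0.75 ± 0.28 (adjusted p = 0.0679), -0.04 ± 0.28 (adjusted p = 0.989) and 0.25 ± 0.28 (adjusted p = 0.600).

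Bik encodes a BH3-only protein of the endoplasmic reticulum membrane (chr15:83526862-83544634, plus strand). Its group means ran from 0.711 to 1.73 CPM, each group overlapped its neighbour in the order, and it was called in 0 of the 15 comparisons. In sh2 cells it ran from 0.549 to 0.847 CPM with activin B and from 0.9505 to 1.66 CPM with DOX alone, without overlap. That response was -0.81 ± 0.37 (adjusted p = 0.138). The responses were 0.25 in ALK7, -0.31 in ALK7-DN, 0.32 in sh1/2 and -0.37 in control cells, all with overlap and uncalled. The sh1/2 DOX replicates 1 and 3 were again low at 0.651 and 0.748 CPM, beside 1.74 CPM in replicate 2. Without replicate 2, the sh1/2 response of Bik passed at 0.95 (adjusted p = 0.0341), its difference from control under DOX alone at -1.01 (adjusted p = 0.0276) and the difference of responses at 1.32 (adjusted p = 0.0276). Bbc3 passed in both of those comparisons without that library, at -1.46 (adjusted p = 4.50e-04) and 1.81 (adjusted p = 9.76e-04), and it also passed in both with the replicate block on all libraries, at -0.78 (adjusted p = 0.0133) and 1.17 (adjusted p = 0.012).

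**Figure D5:**
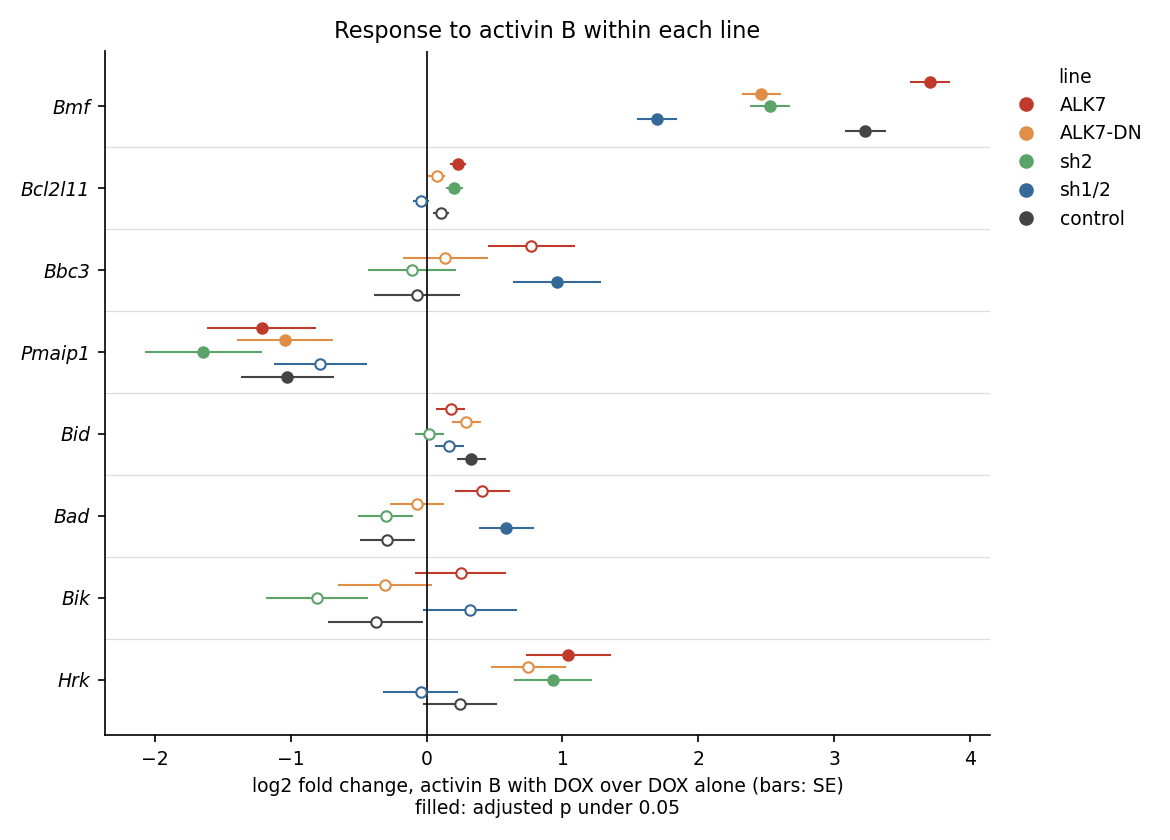
Response to activin B of the 8 BH3-only genes in each line, as log2 fold change of activin B with DOX over DOX alone, with SE; filled points passed the test. Bmf is filled in all 5 lines (1.70 to 3.71) and Pmaip1 lies below 0 in all 5 (-1.64 to -0.78), filled in all but sh1/2.

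Counted over the 8 members, the activin B response passed for 4 in ALK7 cells (3 higher, 1 lower), 2 in ALK7-DN (1 higher, 1 lower), 4 in sh2 (3 higher, 1 lower), 3 in sh1/2 (3 higher, 0 lower) and 3 in control cells (2 higher, 1 lower). Of all genes, 25.3% passed in ALK7, 16.1% in ALK7-DN, 19.6% in sh2, 36.6% in sh1/2 and 20.3% in control cells. In sh1/2 cells 3 of 8 members is close to the share of all genes, and with so few members none of these counts was read as a difference from that background. The members' median log2 fold changes were 0.33, 0.11, -0.04, 0.24 and 0.02 in the same order of lines, beside 0.00, -0.01, -0.01, -0.01 and -0.00 over all genes.

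Against control cells with DOX alone, 0 members were called in ALK7, 0 in ALK7-DN and 2 in sh1/2 cells, where edgeR called 1.98%, 0.966% and 38% of all genes. At an unadjusted p under 0.05 there were 3, 0 and 4 members, and DESeq2 called 0, 0 and 2. Against control cells with activin B, 1 member was called in ALK7, 0 in sh2 and 2 in sh1/2 cells, where edgeR called 4.53%, 9.23% and 35.2% of all genes. In sh2 cells 3 members had an unadjusted p under 0.05 and DESeq2 called 1. With DOX alone Hrk differed from control in ALK7 cells by -1.12 ± 0.32 (adjusted p = 0.0627, without overlap), and it passed without the 3 libraries left out above (-1.12, adjusted p = 0.0236). With activin B, Pmaip1 in sh2 against control cells was -1.34 ± 0.44 (adjusted p = 0.0505) and passed without sh2 activin B replicate 2 (-1.80, adjusted p = 0.0353). Bcl2l11 in the same comparison was 0.18 ± 0.06 (adjusted p = 0.0563) and passed without control activin B replicate 1 (0.23, adjusted p = 0.0288).

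The partners and neighbours of BH3-only proteins in the pathway were counted in the same way. Of all genes, 25.3% passed in ALK7, 16.1% in ALK7-DN, 19.6% in sh2, 36.6% in sh1/2 and 20.3% in control cells. No count of the lists that follow was tested against, or read as a difference from, that background. Of 7 tested genes for survival proteins and effectors of the BCL2 family, 0 passed in ALK7-DN, sh2 and control cells, where 1, 1 and 2 had an unadjusted p under 0.05 and DESeq2 called 0. Other fits called 1 or 2 there, with the block, with block and GC correction, or without the 3 libraries left out above. In ALK7 cells 1 fell, Bcl2l2 (-0.20 ± 0.04, adjusted p = 1.55e-04), which encodes the survival protein BCL-W. The ALK7 count was 3 with the replicate block and 2 by DESeq2, and it ran from 1 to 3 over all alternatives. In sh1/2 cells Bax (0.46 ± 0.12) and Bak1 (0.50 ± 0.14), the pore-forming effectors, rose, and Mcl1 (-0.27 ± 0.08) and Bcl2l2 (-0.15 ± 0.04) fell. These genes were named after their values were seen, and 0 of the 7 passed in sh1/2 cells with only the groups compared fitted.

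Of 13 genes for steps after mitochondrial opening, such as caspases, Apaf1 and their inhibitors, 3 passed in ALK7 cells (1 higher, 2 lower), 0 in ALK7-DN, 0 in sh2, 8 in sh1/2 (1 higher, 7 lower) and 0 in control cells. At an unadjusted p under 0.05 there were 2 in ALK7-DN, 2 in sh2 and 0 in control cells, DESeq2 called 0 in each, and over all alternatives the counts reached 3, 3 and 2. The counts ran from 1 to 5 in ALK7 and from 0 to 10 in sh1/2 cells over all alternatives. Of all genes, 25.3% passed in ALK7 and 36.6% in sh1/2 cells with all libraries. Of 7 tested genes for other proteins with a BH3-like segment, 1 fell in ALK7 and 1 in sh2 cells, both times Bnip3 (-0.44 ± 0.14 and -0.48 ± 0.14). In sh1/2 cells 1 fell, Bnip3l (-0.29 ± 0.09), and 0 passed in ALK7-DN and control cells, also at an unadjusted p under 0.05 and by DESeq2. These counts ran from 0 to 1 in ALK7, 0 to 3 in sh2 and 0 to 3 in sh1/2 cells over all alternatives. DESeq2 called 2 in sh2 cells. Bnip3 and Bnip3l encode mitophagy receptors and were named after their values were seen.

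Of 22 partners and regulators of BH3-only proteins, 6 passed in ALK7 cells (3 higher, 3 lower), 3 in ALK7-DN (2 higher, 1 lower), 4 in sh2 (3 higher, 1 lower), 11 in sh1/2 (7 higher, 4 lower) and 3 in control cells (2 higher, 1 lower). Beside these counts stand 25.3%, 16.1%, 19.6%, 36.6% and 20.3% of all genes, in the same order of lines. The sh1/2 count was 2 with only the groups compared fitted and ran from 2 to 15 over all alternatives. In the other lines the counts ran from 4 to 9 in ALK7, 2 to 6 in ALK7-DN, 2 to 10 in sh2 and 2 to 7 in control cells. Foxo3, a transcription factor known to raise Bcl2l11 and Bbc3, rose in all 5 lines, by log2 fold changes from 0.24 in ALK7-DN to 0.45 in sh2 cells, with 0.28 ± 0.06 in control cells (adjusted p = 0.00169, but 0.109 with only the groups compared fitted). Pim2, a survival kinase that phosphorylates BAD, fell in all 5, from -0.62 in ALK7 to -0.31 in sh1/2 cells, with -0.45 ± 0.07 in control cells (adjusted p = 1.03e-05). Jun, an AP-1 subunit downstream of JNK, rose in ALK7 (0.96 ± 0.13), sh2 (0.44 ± 0.13), sh1/2 (0.60 ± 0.12) and control cells (0.45 ± 0.13, adjusted p = 0.0111), and was 0.30 in ALK7-DN cells, below the threshold. The Jun call was lost in control cells without DOX replicate 2 (0.36, adjusted p = 0.0754) or activin B replicate 1 (0.39, adjusted p = 0.0522), and in sh2 cells without DOX replicate 2 (0.40, adjusted p = 0.0644) or activin B replicate 3 (0.37, adjusted p = 0.0822). Without the 3 libraries, which left 1 DOX library in sh1/2 cells, the Jun value there was 0.30. With the replicate block it passed in ALK7-DN cells (0.30, adjusted p = 0.0201).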

How the data were processed

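Per the labels' protocols, poly(A) RNA of Trizol extracts went through a stranded library kit. Per the submitters' processing notes, bcl2fastq 2.17, cutadapt 1.4.2, HISAT2 and featureCounts 1.4.4 were used with the build mm10; the HISAT2 version, the strand setting and the handling of multiply aligned reads are not given in the sources used here. The authors deposited integer read counts per gene, with no normalization, and the series table was identical to the 30 single-sample columns. Every column was assigned to a sample from its label, and the deposited normalized table was not used. PCR duplicates were not marked by molecular identifiers.

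Counts were tested with edgeR 4.0.16 in R 4.3.3: filterByExpr over 10 groups (minimum count 10), TMM normalization, a model of 10 group means over the 30 libraries, and quasi-likelihood F tests, with Benjamini-Hochberg adjustment over all 15627 genes and a threshold of 0.05. A change called a rise, fall or pass met it. Log2 fold changes are those of edgeR, SE is the unshrunk log2 fold change over the root of F, and 95% intervals use 20 residual degrees of freedom. At low counts the test could give a larger p than these SE and intervals imply, so they can be too narrow there. CPM uses TMM-scaled library sizes, and RPKM divides it by the union of GENCODE M21 exons. There were 15 comparisons; sh2 against control under DOX alone and ALK7-DN against control with activin B were left out, since there the line and the batch label cannot be told apart. DESeq2 1.42.0 and the other alternatives are in the closing section. Replicates of a group differed by more than sampling noise (chi-square over its degrees of freedom at least 8.25).

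Whether replicate numbers pair wells was checked by correlating deviations from the group means across genes. Same-numbered wells correlated at 0.209, 0.109 and 0.124 in ALK7, at 0.329, 0.102 and 0.177 in ALK7-DN and at 0.325, 0.233 and 0.130 in sh1/2 cells, all above 0.1, so numbers were taken as pairs for the activin B responses of those 3 lines, where blocked values stand beside results whose call they change. Control wells did not meet this rule, and blocked values of comparisons with control are in the closing section. The pairing comes from the data, not from the labels.

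The members, gene lists and alternatives were chosen with earlier results of these data known. All 8 members and Acvr1c are named. Of each list, up to 4 genes with the smallest p among those called in the control response and any called in 1 direction in all 5 lines are named. The 5 genes most like Bmf exclude readthrough genes and symbols of the Gm and Rik kinds. 1 marker gene is not reported here.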

Additional observations from a re-analysis of the deposited data

Results flagged for a closer look

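Among the 8 genes, the test of a difference in activin B response between a line and the control line picked out 2 results, both in sh1/2 cells. The Bmf response was smaller in sh1/2 than in control cells by a log2 difference of -1.53. The Bad response was larger in sh1/2 than in control cells by 0.88, a call near the threshold (adjusted p = 0.0425). It was lost on leaving out control DOX replicate 1 or 3, control activin B replicate 2, sh1/2 DOX replicate 1 or 3, or sh1/2 activin B replicate 2 or 3. The values were then 0.71, 0.90, 0.71, 0.75, 0.72, 0.80 and 0.87 in that order, with adjusted p from 0.0662 to 0.154. Dixon's test for an outlying library was not run, since every group held 3. The 3 libraries left out together were chosen with earlier results of these data known.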

How the results depend on the processing

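Alternatives were no low-count filter, DESeq2 size factors in edgeR, fits of only the groups compared, the replicate block within each line, the block with a GC correction, leaving out sh1/2 DOX 1, sh1/2 DOX 3 and control activin B 2, the DESeq2 Wald test, and leaving out each library in turn. Without those 3 libraries the sh1/2 DOX group held 1 library, so every comparison with that group then rests on it. No called value changed sign. Of member values recomputed, 1636 kept their side of the threshold, 64 lost a call and 44 gained one; 80 of 1744 changed sign while uncalled in both fits.

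Members called changed by more than 1.5 times as follows. In control cells (3) it was 1 with no filter. In ALK7-DN cells (2) it was 1 with no filter, 1 with only the groups compared, 4 without the 3 libraries and 1 by DESeq2. In sh1/2 cells (3) it was 1 with only the groups compared and 1 without the 3 libraries. The difference of responses became 2 in ALK7 (0) with GC correction and block, and in sh1/2 (2) 1 with no filter, 1 with only the groups compared, 4 with the block and 1 without the 3 libraries. Under DOX alone it became 1 without the 3 libraries in ALK7 (0), and in sh1/2 (2) 1 with only the groups compared and 1 without the 3 libraries. With activin B it became 3 in ALK7 (1) with the block, with or without GC correction, and in sh2 (0) 1 with DESeq2 size factors, 2 with the block, 3 with block and GC correction, 1 without the 3 libraries and 1 by DESeq2. Leaving out each library gave 2 to 4 in ALK7, 1 to 2 in ALK7-DN, 1 to 5 in sh1/2 and 1 to 2 in control cells, 1 to 4 for the sh1/2 difference of responses, 1 to 4 for sh1/2 under DOX alone and 0 to 1 for sh2 with activin B. Acvr1c in ALK7 against control cells with activin B (-0.32, adjusted p = 0.0818) passed at -0.32 with the block, -0.22 with block and GC correction and -0.33 by DESeq2. With the block alone, calls against control gained were Bcl2l11 (-0.15, adjusted p = 0.0430) and Bbc3 (1.17) in the sh1/2 difference of responses, Bbc3 in sh1/2 under DOX alone (-0.78), and with activin B Bcl2l11 (0.15, adjusted p = 0.0254) and Bad (0.42, adjusted p = 0.0340) in ALK7, Bcl2l11 (0.18, adjusted p = 0.00576) and Pmaip1 (-1.37, adjusted p = 0.0484) in sh2 and Bad (0.33, adjusted p = 0.0303) in sh1/2 cells. Over all alternatives, sh1/2 counts ran from 0 to 6 for survival proteins and effectors, 0 to 10 for later steps, 2 to 15 for partners and regulators and 0 to 3 for BH3-like proteins. The cause of these changes was not tested, and fits that left out libraries also had fewer samples.

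Counts over all genes moved by more than 1.5 times in many settings. Leaving out each library gave 2974 to 8227 for the sh1/2 response, lowest without sh1/2 DOX 3 and highest without sh1/2 DOX 2, and 289 to 6983 for its difference from control. With GC correction and block, responses rose to 6062 in ALK7 (3953), 4622 in ALK7-DN (2515), 5524 in sh2 (3070) and 5342 in control cells (3180). With only the groups compared, they fell to 1555 in sh1/2 (5723) and 1734 in control cells, and without the 3 libraries to 1476 in sh1/2 cells. The sh1/2 difference of responses (2768) was 989 with no filter, 45 with only the groups compared, 5956 with the block and 64 without the 3 libraries. Apart from leaving out single libraries, the ALK7 difference of responses (4) ran from 0 to 437, that of ALK7-DN (0) from 0 to 3 and that of sh2 (2) from 0 to 17. Under DOX alone, ALK7 (310) ran from 159 to 1671, ALK7-DN (151) from 25 to 520 and sh1/2 (5934) down to 2430; with activin B, ALK7 (708) ran from 46 to 2174 and sh2 (1443) from 440 to 3338. In control and sh2 cells at least 1 same-numbered pair correlated under 0.1 (0.079 and 0.093), although every well correlated best with its own number; with the block, Hrk in sh2 cells no longer passed (0.93, adjusted p = 0.0526). Depth limits Pmaip1, Hrk and Bik most, with as few as 2 counts in a library. The p-values cover counting error and the spread of wells, while SE and intervals can be too narrow at low counts.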
